A study of Bos taurus with 90 samples.

Results

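Liver RNA of Holstein-Friesian (HF) steers was compared between 2 diets, freshly cut grass (ZG) and a later barley-based concentrate (H2). The 31 libraries carrying the HF breed label and either of these diet labels were taken out of 90, which gave 18 libraries for ZG and 13 for H2. The steers also belonged to a low or a high residual feed intake (RFI) group, low RFI marking animals that eat less than their size and growth predict. Low RFI animals gave 10 of the ZG and 5 of the H2 libraries, and high RFI animals gave 8 of each. In H2 the steers received a mix made mostly of rolled barley, with some soya bean meal and molasses, and a small ration of grass silage beside it. In ZG they were fed perennial ryegrass that was cut and carried to them. For sequencing the study took the extremes of the RFI ranking within each breed and phase, so the libraries do not represent its middle. Liver was biopsied when a phase ended. H2 was the later, finishing phase, with grazed grass offered in between. Diet, age, season and production stage therefore cannot be told apart in this comparison.

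The liver of cattle receives volatile fatty acids from rumen fermentation rather than much glucose from the gut. Starch-rich concentrate shifts fermentation towards propionate, the main precursor of glucose in the ruminant liver, while grass gives proportionally more acetate. Insulin signalling, glycogen storage, lipid synthesis, nitrogen disposal and detoxification are hepatic functions that respond to feed in ruminants.

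Between 11586997 and 24860020 reads per H2 library and between 11696079 and 63621304 reads per ZG library were counted on genes, with medians of 16581187 and 18447980. A 2-sided permutation test on the log2 totals gave p = 0.274 for the difference between phases. Messenger RNA of fibrinogen alpha chain (FGA), a plasma protein made by hepatocytes, was abundant in all 31 libraries, from 6987 to 33123 CPM (counts scaled to a fixed library size after TMM normalisation). APOC3, an apolipoprotein that hepatocytes secrete, ranged from 729 to 3178 CPM. The files pair no gene identifier with a name, and symbols could be given to 328 identifiers that the study had listed for RFI differences, so of 12 cell type marker lists only that of hepatocytes had a tested member, and the 11 lists for other cell types could not be looked up. One H2 library carries the steer number 1797, which the labels give to a CH animal in an earlier phase. Without it edgeR called 326 genes in the comparison below in place of 414. Fewer cells of a type and less RNA per cell cannot be told apart in these bulk samples.

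The main axis of variation among the 31 libraries did not separate the diets. The first principal component held 46.6% of the variance, and its mean differed by -1.64 between H2 and ZG (permutation p = 0.918, 2-sided), but its SD was 51.7 among the ZG libraries and 27.4 among the H2 libraries. Of all genes tested, 62.1% had a correlation with this score above 0.5 in absolute value over the 31 libraries, as a description of the libraries that also define the score. A set of 5 libraries stood apart with scores from -109 to -56.0, while the other 26 lay between -29.1 and 63.0. Under ZG they were the libraries of high RFI steers 1798, 2069 and 2242 and of low RFI steer 5635. Under H2 it was the library of high RFI steer 1639, so the set was not balanced by RFI group. The 10 most abundant genes took 32.8% to 38.5% of counts in these 5 libraries and 23.8% to 34.0% in the other 26. The third component, with 5.47% of the variance, differed between the phases, with scores from -7.29 to 25.6 under H2 and from -29.9 to 1.88 under ZG. No test was run on this component.

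**Figure D1:**
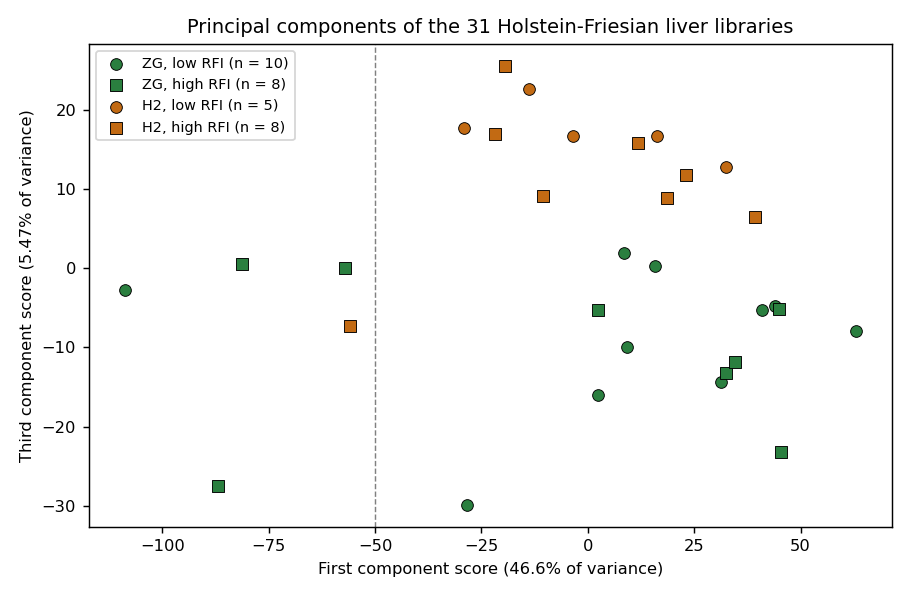
Scores of the 31 HF liver libraries on the first principal component (horizontal axis) and the third (vertical axis) of log2 CPM, without units. Each point is 1 library, colours give the diet and shapes the RFI group, and the dashed line marks a score of -50. The 5 libraries left of the line lie far from the other 26, while the H2 and ZG points separate along the vertical axis with an overlap between -7.29 and 1.88.

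Of 12417 genes tested with edgeR's quasi-likelihood test and RFI group as a covariate, 414 (3.33%) differed between H2 and ZG at an adjusted p under 0.1 and are described as called. Expression was higher under H2 for 243 genes (1.96%) and lower for 171 (1.38%), with median log2 fold changes of 0.52 and -0.50. A change beyond 1 on the log2 scale was found for 46 of the called genes, 25 of them higher under H2. The median over all tested genes was -0.02, and 1805 genes (14.5%) had an unadjusted p under 0.05.

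The count also moved with 2 single libraries, to 251 (138 higher, 113 lower) without the H2 library of steer 5612 and to 683 (415 higher, 268 lower) without the ZG library of steer 5635. The balance of directions changed with single libraries too. Without the ZG library of steer 1639 it was 139 higher and 218 lower, without that of steer 2272 it was 152 and 226, and without the 6 libraries of the 3 steers sampled in both phases 86 and 143. The higher count also fell by over 1.5 times without the H2 library of steer 2220 (157) or 5609 (159). DESeq2 called 369 genes in each direction.

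The number of called genes depended on the 5 libraries. Without them edgeR called 3245 of 12458 genes (26%), 1510 higher (12.1%) and 1735 lower (13.9%), including 404 of the 414 (both this choice and the covariate below were made after seeing the data). In those 26 libraries the first component score was 3.63 ± 22.9 (SD, n = 12) under H2 and 24.8 ± 24.1 (SD, n = 14) under ZG. The 5 libraries were taken out by this same score. A permutation test of it in the other 26 (p = 0.0318, 2-sided) therefore cannot show whether the score moved with the diet. The part of the score in the larger count was not tested. With the score as a covariate and all 31 libraries kept, 2078 genes (16.7%) were called, 1217 higher (9.8%) and 861 lower (6.93%), and all 414 were among them. limma-voom with a quality weight for each library called 2866 genes (23.1%), of which 1639 were higher (13.2%) and 1227 lower (9.88%). These 3 alternatives had 1315 genes in common, 10.6% of those tested, and 398 of the 414 were among them.

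Most of the called genes, 402 of 414, have no symbol in the names used here. The smallest adjusted p in either direction belonged to such genes. ENSBTAG00000033319 ranged from 0.551 to 1.83 CPM under ZG (median 1.02) and from 1.54 to 4.26 CPM under H2 (median 2.40), a log2 fold change of 1.40 (SE 0.17, edgeR adjusted p = 2.13e-05). Its level in 11 of the 13 H2 libraries was above every ZG library. The same held for ENSBTAG00000015056, whose median was 0.675 CPM under ZG and 3.08 CPM under H2 (log2 fold change 1.85, SE 0.24). ENSBTAG00000014835 fell from a median of 169 CPM under ZG (106.6 to 214) to 102.8 CPM under H2 (84.5 to 129.8), and 9 of 13 H2 libraries lay below every ZG library. The log2 fold change came to -0.71 (SE 0.09, edgeR adjusted p = 2.13e-05). ENSBTAG00000013148 went from a median of 39.0 to 24.8 CPM, a log2 fold change of -0.64 (SE 0.09).

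Among the 307 genes with a symbol that were tested, 12 (3.91%) were called, beside 3.33% of all genes, with 8 higher and 4 lower under H2. The study listed these 307 genes for differences between RFI groups in this series, which include the 31 libraries, so they are not a random sample of the transcriptome. Their median log2 fold change was -0.07, against -0.02 over all genes. All 12 were also called without the 5 libraries, with the first component as a covariate and with quality weights. Of the 11 described below, FAM213A and SERPINI2 were also called in low RFI steers alone, and 0 were called by edgeR in high RFI steers alone, fits with fewer libraries.

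MAP2K6, the kinase that activates p38 MAP kinase, had 10.4 to 19.9 CPM under ZG (median 14.1) and 13.9 to 44.5 CPM under H2 (median 21.3). Of the 13 H2 libraries, 12 were above the ZG median and 8 above every ZG library. On the log2 scale the change was 0.67 (SE 0.13, edgeR adjusted p = 0.0036), and 0.65 without the 5 libraries. PPP1R3C, the subunit that directs protein phosphatase 1 to glycogen, had a median of 225 CPM under ZG (149.6 to 385) and 370.5 CPM under H2 (234 to 590). Every H2 library exceeded the ZG median, while the ranges overlapped between 234 and 385 CPM. PPP1R3C had a log2 fold change of 0.69 (SE 0.14, edgeR adjusted p = 0.00425) and 0.80 without the 5 libraries.

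FAM213A, a peroxiredoxin-like redox protein, rose from a median of 62.1 CPM (38.5 to 113.7) to 96.0 CPM (63.0 to 124.7). All 13 H2 libraries were above the ZG median, and the one high ZG value of 113.7 CPM came from steer 2242, whose library is among the 5 apart. The change in log2 units was 0.61 (SE 0.13, edgeR adjusted p = 0.00972) and 0.78 without those libraries. C10H14orf105, an open reading frame, had medians of 5.31 CPM under ZG (1.68 to 12.003) and 11.1 CPM under H2 (5.41 to 13.2), a log2 fold change of 0.85 (SE 0.21, edgeR adjusted p = 0.0232). It too was above the ZG median in all 13 H2 libraries, and without the 5 libraries its log2 fold change was 1.10. C10H14orf105 was not called without the 6 libraries of the 3 steers sampled in both phases, where its log2 fold change was 0.74 (edgeR adjusted p = 0.111).

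SERPINI2, a serine protease inhibitor best known from the pancreas, had the largest fold change of the 12 and the widest spread. No read was counted in 5 of the 18 ZG libraries, the ZG median was 0.148 CPM and the highest ZG library reached 31.1 CPM. Under H2 the range was 0.0557 to 249 CPM with a median of 7.69, and 12 of 13 libraries were above the ZG median. The log2 fold change was 4.29 (SE 1.09, edgeR adjusted p = 0.0312). Without the H2 library of steer 2071, at 249 CPM, it was 3.27 (adjusted p = 0.0652), and without the ZG library of steer 2272, at 31.1 CPM, it was 6.92 (adjusted p = 2.71e-05). With high RFI steers alone the log2 fold change was 1.93 and the gene was not called (edgeR adjusted p = 0.73).

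WHAMM, which promotes actin assembly at internal membranes, had 16.4 to 23.6 CPM under ZG (median 21.2) and 18.3 to 33.8 CPM under H2 (median 24.0), with 10 of 13 H2 libraries above every ZG library. The fitted log2 fold change was small, 0.30 (SE 0.08, edgeR adjusted p = 0.0352), and 0.25 without the 5 libraries. Without the ZG library of steer 2272 it was 0.26 and WHAMM was not called (adjusted p = 0.107), nor was it without the 6 libraries of the 3 steers in both phases (0.24, edgeR adjusted p = 0.181). HIST1H2BD, a histone H2B gene, had a log2 fold change of 0.58 (SE 0.16, edgeR adjusted p = 0.0624), from a median of 6.90 to 8.58 CPM, and 0.43 without the 5 libraries. The call for HIST1H2BD did not hold without the H2 library of steer 5588 (adjusted p = 0.123), 5612 (0.113) or 5632 (0.107), or without the ZG library of steer 1639 (0.101) or 1798 (0.108), or without the 6 libraries of the steers in both phases (0.263). KIF23, a kinesin needed for the last step of cell division, had a median of 13.5 CPM under ZG (5.44 to 25.1) and 20.0 CPM under H2 (9.99 to 39.7). Its log2 fold change of 0.65 (SE 0.20, edgeR adjusted p = 0.094) was near the threshold, and leaving out any of 19 of the 31 libraries took it past 0.1, up to 0.202. With steer as a block in limma-voom KIF23 was not called (log2 fold change 0.62, adjusted p = 0.137), and without the 6 libraries of the steers in both phases it had 0.44 (edgeR adjusted p = 0.415).

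Of the 4 genes lower under H2, P4HA1 encodes the catalytic subunit of the enzyme that hydroxylates proline in collagen. Its level was 18.2 to 65.7 CPM under ZG (median 31.8) and 14.9 to 38.2 CPM under H2 (median 20.9), with 11 of 13 H2 libraries below the ZG median. The log2 fold change was -0.68 (SE 0.17, edgeR adjusted p = 0.0257) and -0.56 without the 5 libraries. P4HA1 had a correlation of -0.60 with the first component score over the 31 libraries, and the highest ZG library, at 65.7 CPM, was one of the 5 apart.

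NRCAM, an immunoglobulin-family cell adhesion molecule, had the largest decrease among the 12, from a median of 5.02 CPM under ZG (2.00 to 9.09) to 0.970 CPM under H2 (0.197 to 8.69). In 10 of 13 H2 libraries NRCAM was below every ZG library. The one H2 value above the ZG median, 8.69 CPM, came from the library of steer 1639 that stands apart. Its log2 fold change was -1.48 (SE 0.38, edgeR adjusted p = 0.0342) and -1.91 without the 5 libraries (adjusted p = 0.00107).

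ERMP1, a metallopeptidase of the endoplasmic reticulum, fell from a median of 75.8 CPM (52.7 to 113.5) to 56.2 CPM (47.3 to 78.1), and 12 of 13 H2 libraries were below the ZG median. The log2 fold change of ERMP1 was -0.36 (SE 0.09, edgeR adjusted p = 0.0386) and -0.30 without the 5 libraries. ERMP1 had a correlation of -0.58 with the first component score, and its highest ZG value, 113.5 CPM, came from steer 5635, whose library is among the 5.

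**Figure D2:**
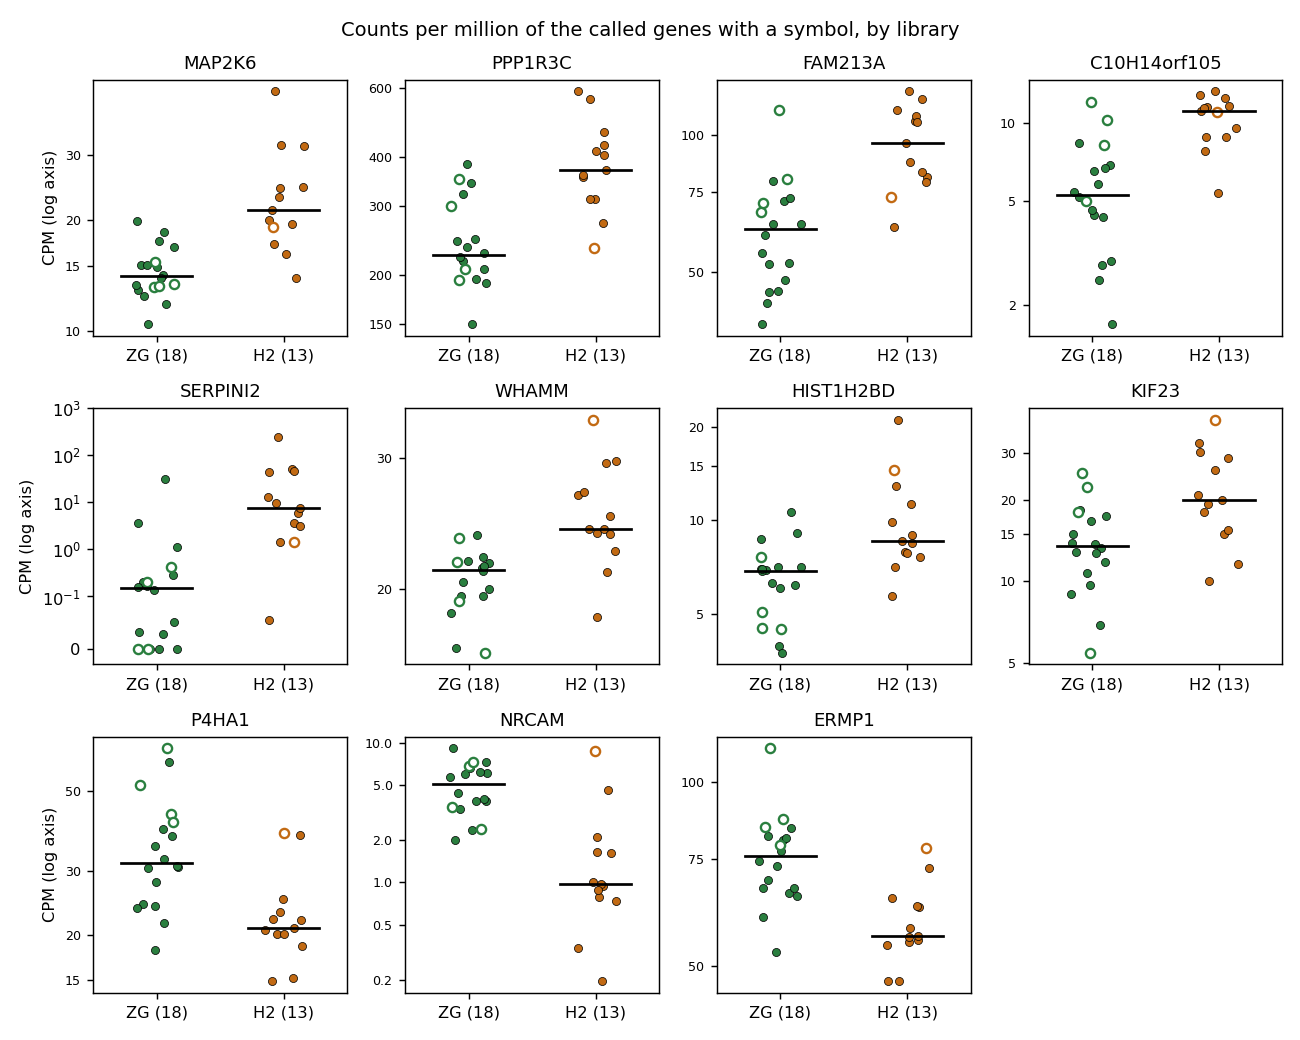
CPM of 11 of the 12 called genes with a symbol in each of the 18 ZG and 13 H2 libraries, on log axes (linear below 0.1 CPM for SERPINI2). Points are libraries, open points are the 5 libraries that stand apart, and black lines are medians. Most H2 points lie above the ZG median in the upper 8 panels and below it in P4HA1, NRCAM and ERMP1, and the ranges of the 2 diets overlap in every panel.

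A further 25 genes with a symbol were not called by edgeR in all 31 libraries but passed the threshold in each of the 3 alternatives, 10 with a positive and 15 with a negative log2 fold change. Together with the 12, these were 37 genes, 12.1% of the 307, beside 10.6% of all genes tested. These 25 were selected after their values had been seen. The adjusted p-values given for them are those with all 31 libraries unless another fit is named.

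IRS2, an adaptor that carries the signal of the insulin receptor, had 0 to 6.26 CPM under ZG (median 1.70) and 0 to 2.23 CPM under H2 (median 0.501), and 12 of 13 H2 libraries were below the ZG median. Its log2 fold change was -1.74 (SE 0.57, edgeR adjusted p = 0.117), -1.11 with the first component as a covariate (adjusted p = 0.00154) and -2.07 without the 5 libraries (adjusted p = 0.00524). IRS2 followed the first component score closely, with r = 0.85. GPD1, which makes glycerol 3-phosphate from a glycolytic intermediate, had 91.6 to 399.9 CPM under ZG (median 266) and 110.9 to 481 CPM under H2 (median 368). GPD1 had a log2 fold change of 0.52 (SE 0.17, edgeR adjusted p = 0.126) and 0.42 without the 5 libraries (adjusted p = 0.0182). The lowest GPD1 values of both diets, 91.6 and 110.9 CPM, were in libraries among the 5, those of steers 5635 and 1639.

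MAOB, an amine oxidase of the outer mitochondrial membrane, had a median of 769 CPM under ZG (525 to 956) and 876 CPM under H2 (687 to 1013), with a log2 fold change of 0.20 (SE 0.08, edgeR adjusted p = 0.227). ACOT12, a cytosolic hydrolase of acetyl-CoA, had medians of 18.8 and 21.7 CPM and a log2 fold change of 0.22 (SE 0.10, edgeR adjusted p = 0.319). Both had adjusted p-values under 0.1 in each alternative, at log2 fold changes between 0.21 and 0.31. The ranges of the diets overlapped over most of their extent in both genes.

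ALAS1, the rate-limiting enzyme of heme synthesis, had 172 to 943 CPM under ZG (median 401.5) and 159 to 438 CPM under H2 (median 296). Under ZG, 7 of 18 libraries were above every H2 library. Its log2 fold change was -0.55 (SE 0.17, edgeR adjusted p = 0.106) and -0.45 without the 5 libraries (adjusted p = 0.094). The study had listed ALAS1 for an RFI difference in HF steers under ZG, so its values by RFI group come from libraries that had selected it. The ALAS1 medians of the low RFI steers were 272 CPM under ZG and 290.5 CPM under H2, and those of the high RFI steers 563 and 297 CPM. The test of that difference between RFI groups had an unadjusted p of 0.0238 and did not pass adjustment with edgeR (adjusted p = 1).

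HSPA1A, the inducible heat shock protein of the HSP70 family, ranged from 18.2 to 871 CPM under ZG (median 177) and from 33.8 to 334 CPM under H2 (median 120.4), a log2 fold change of -1.02 (SE 0.42, edgeR adjusted p = 0.24). HSPB1, a small heat shock protein, had medians of 121.9 and 97.4 CPM and a log2 fold change of -0.70 (SE 0.36, edgeR adjusted p = 0.367). Their correlations with the first component score over the 31 libraries were 0.88 and 0.95. With the score as a covariate the log2 fold changes were -0.65 and -0.43, and without the 5 libraries they were -1.28 and -0.996, each with an adjusted p under 0.1 from edgeR. TOLLIP, an adaptor of Toll-like receptor signalling, had a log2 fold change of -0.76 (edgeR adjusted p = 0.361), of -0.40 with the covariate and of -1.04 without the 5 libraries, and a correlation of 0.95 with the score.

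TNC, the matrix glycoprotein tenascin C, had a median of 22.7 CPM under ZG (6.73 to 139) and 13.5 CPM under H2 (5.97 to 35.1), a log2 fold change of -0.98 (SE 0.35, edgeR adjusted p = 0.157), at a correlation with the first component of -0.02. JAM2, a junctional adhesion molecule of endothelium, had medians of 20.6 and 17.4 CPM and a log2 fold change of -0.41 (SE 0.13, edgeR adjusted p = 0.105). NEDD9, a scaffold of focal adhesion signalling, had medians of 31.8 and 24.0 CPM and a log2 fold change of -0.61 (SE 0.20, edgeR adjusted p = 0.106). Without the 5 libraries the log2 fold changes were -1.05 for TNC, -0.295 for JAM2 and -0.59 for NEDD9, and the correlation of JAM2 with the score was -0.60. In JAM2 and NEDD9 alike, the library with the highest H2 value was that of steer 1639 (26.1 and 59.0 CPM).

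RAC1, a small GTPase of actin remodelling, had 42.8 to 70.7 CPM under ZG and 41.9 to 54.8 CPM under H2. Its log2 fold change was -0.18 (SE 0.06, edgeR adjusted p = 0.171). DOCK8, a guanine nucleotide exchange factor expressed mainly in leukocytes, had a median of 18.9 CPM under ZG (7.53 to 24.3) and 25.02 CPM under H2 (16.7 to 30.9), and 7 of 13 H2 libraries exceeded every ZG library. The log2 fold change of DOCK8 was 0.43 (SE 0.14, edgeR adjusted p = 0.101). In CH steers DOCK8 had a log2 fold change of -0.02 (SE 0.17, edgeR adjusted p = 0.971). No marker of T cells, B cells, macrophages or neutrophils could be looked up beside it.

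The other 12 genes of this set were FAM149A, IPO5, SASS6, EIF3I, KIAA2012 and CCNDBP1 with positive log2 fold changes between 0.15 and 0.27, and PTK7, ZNF219, OBSL1, GUCY2D, ZXDC and NUP210 with negative ones between -1.16 and -0.41. OBSL1, a cytoskeletal adaptor, had a log2 fold change of -0.80 (SE 0.32, edgeR adjusted p = 0.218), and of -0.57 with the first component as a covariate (adjusted p = 0.000375).

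**Figure D3:**
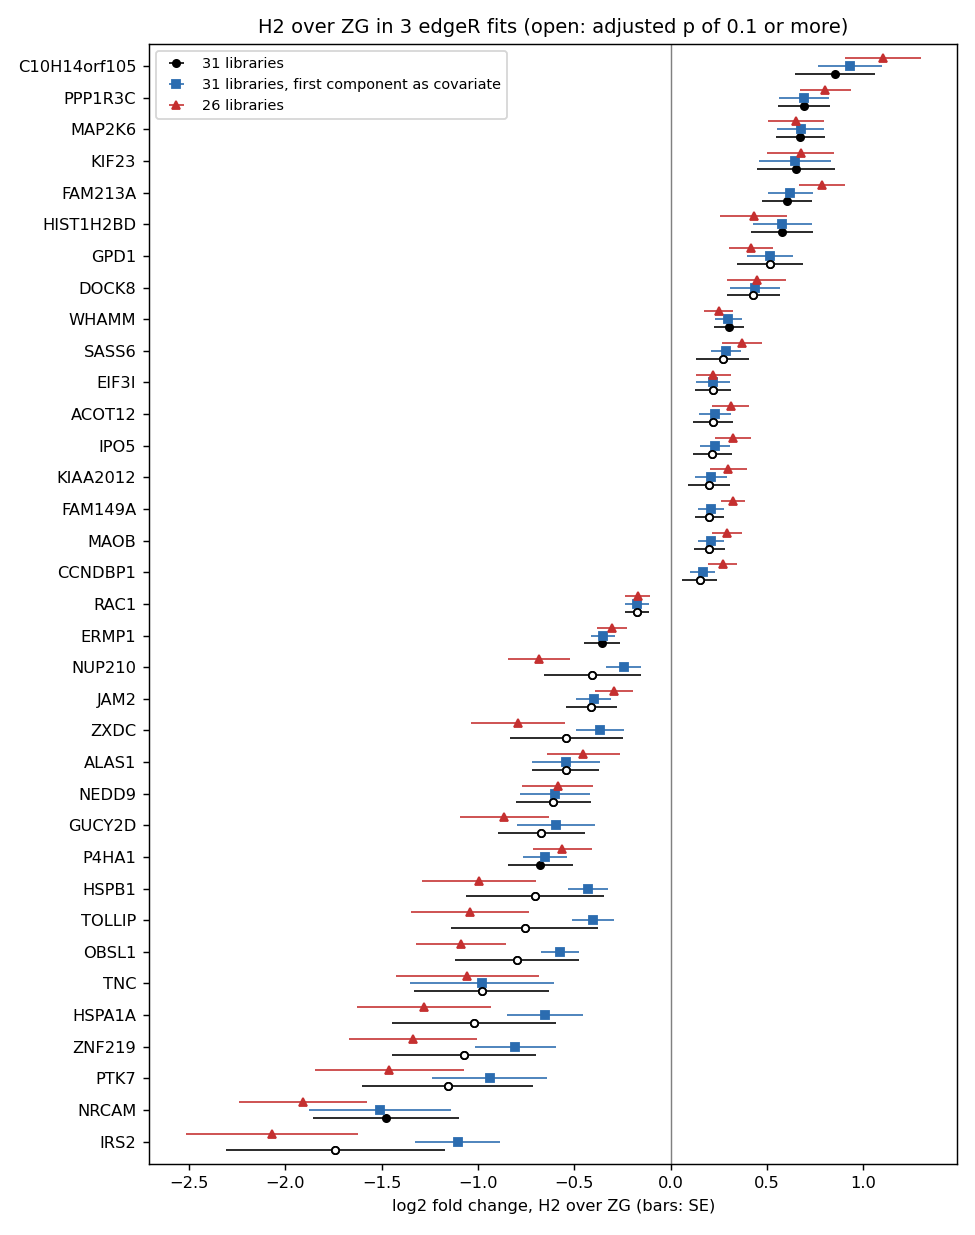
log2 fold changes of H2 over ZG (horizontal axis, bars are SE) for 35 genes with a symbol in 3 edgeR fits, with SERPINI2 left out for its scale. Circles are the fit of 31 libraries, squares the fit with the first component score as a covariate and triangles the fit of 26 libraries, and open symbols have an adjusted p of 0.1 or more. The direction is the same in all 3 fits for each gene shown, and IRS2 ranges from -2.07 to -1.11. Genes were drawn for their calls in these and the quality-weight fits, which share libraries, so the common direction is no separate support.

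Gene lists for liver functions could be read for few members. Of 682 symbols in 23 lists, 54 genes were matched and tested, and 2 lists had no tested member. edgeR called 1 of the 54, PPP1R3C, beside 3.33% of all genes, and DESeq2 called 4, PPP1R3C, IRS2, ALAS1 and TNC, beside 4.83% of the genes it tested. In the list for glycolysis, glycogen and the insulin response, edgeR called 1 of 3 tested members, PPP1R3C, and DESeq2 also called IRS2 (adjusted p = 0.0752). The salt-inducible kinase SIK1 (log2 fold change -0.45, edgeR adjusted p = 0.368) was called by neither. Of the 4 genes of fatty acid and triglyceride synthesis 0 were called by edgeR or DESeq2, 1 had an unadjusted p under 0.05, and their median log2 fold change was 0.10, beside -0.02 over all genes. CIDEC, a protein of the lipid droplet surface, had the largest of these, 0.68 (SE 0.28, edgeR adjusted p = 0.222), with medians of 1.18 CPM under ZG and 1.87 CPM under H2. MID1IP1, which promotes fatty acid synthesis by acetyl-CoA carboxylase, had 0.27 (SE 0.16), and DGAT2, which makes triglyceride from diacylglycerol, had -0.08 (adjusted p = 0.807). CIDEC was called with quality weights, and G0S2, an inhibitor of triglyceride lipase (-0.36, adjusted p = 0.543), was called without the 5 libraries.

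None of the 5 tested acute phase genes was called by edgeR or DESeq2 and 0 had an unadjusted p under 0.05, beside 3.33% called and 14.5% with such a p among all genes, so counts of 0 in 5 genes do not set the list apart. Their median log2 fold change was -0.34. Without the 5 libraries FGA (-0.42, adjusted p = 0.0728) and LBP, which binds bacterial lipopolysaccharide (-0.93, adjusted p = 0.0867), were called by edgeR. With quality weights FGA was called and LBP was not. HP, haptoglobin, ranged from 13.2 to 14679 CPM under ZG (median 91.1) and from 24.7 to 7622 CPM under H2 (median 154), a spread over animals that exceeded the difference between diets (log2 fold change -0.92, SE 1.08, edgeR adjusted p = 0.769). The median and the fitted fold change of HP had opposite signs, and the highest H2 value was that of steer 1639.

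The 5 tested genes of urea cycle and amino acid breakdown, 4 of the methionine cycle, 3 of drug metabolism, 4 of glutathione metabolism and 3 of the circadian clock included 0 genes called by edgeR or DESeq2, with an unadjusted p under 0.05 for 1 gene of drug metabolism and 1 of the clock. Among all genes 3.33% were called and 14.5% had such a p, and counts this small do not separate these lists from them. ACMSD, which diverts tryptophan breakdown from NAD synthesis, had medians of 58.6 and 71.0 CPM and a log2 fold change of 0.32 (edgeR adjusted p = 0.38). The xenobiotic enzyme CYP3A5 had a median of 729 CPM under ZG (309.6 to 1065) and 512 CPM under H2 (375 to 751.5), a log2 fold change of -0.32 (SE 0.15, edgeR adjusted p = 0.298). NR1D1, a repressor of the clock, had medians of 6.31 and 11.0 CPM and a log2 fold change of 0.79 (SE 0.33, edgeR adjusted p = 0.244). With the first component as a covariate, CYP3A5 and NR1D1 were called by edgeR and ACMSD was not, and without the 5 libraries none of these 3 was called. The zinc importer SLC39A4 had medians of 3.56 and 1.70 CPM and a log2 fold change of -1.13 (SE 0.51, edgeR adjusted p = 0.293). SLC39A4 was called by edgeR without the 5 libraries (-1.51, adjusted p = 0.0197) but not with the covariate (-0.45, adjusted p = 0.228). It was also called by limma-voom with quality weights. FETUB, a hepatokine, had medians of 176 and 119 CPM (log2 fold change -0.69, edgeR adjusted p = 0.189).

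**Figure D4:**
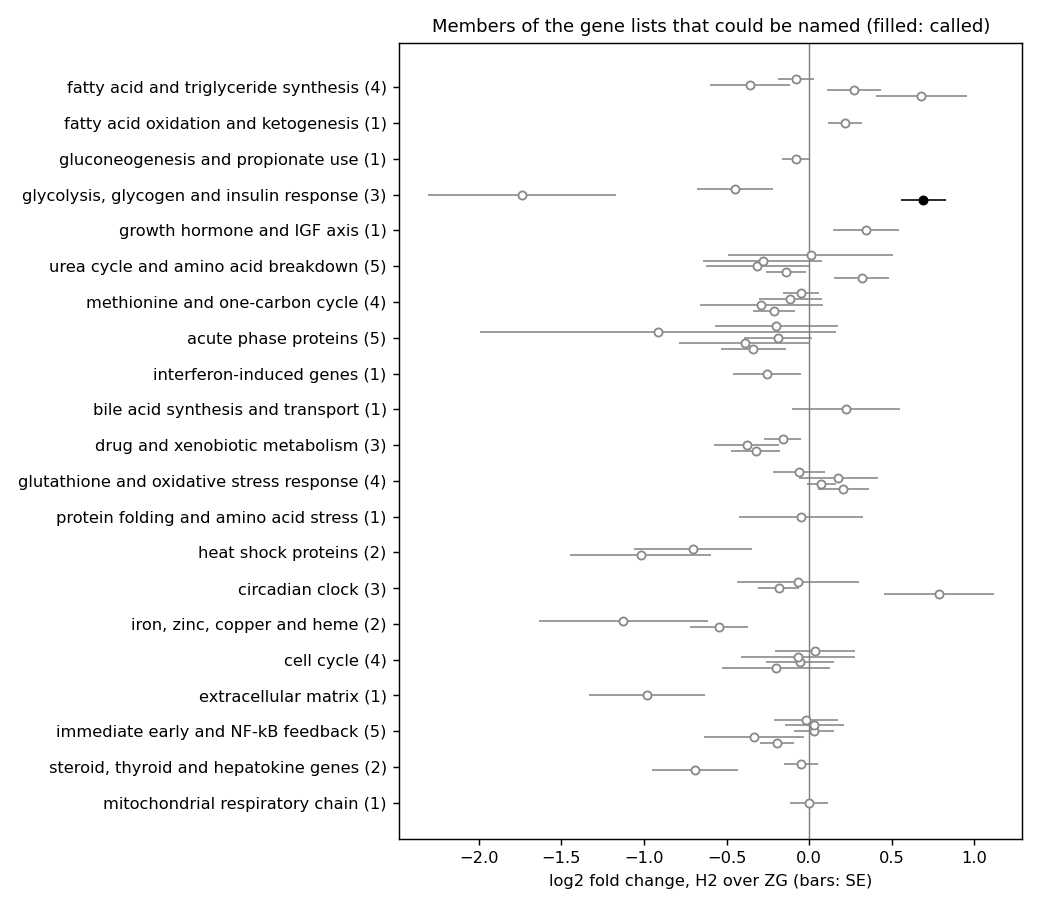
log2 fold changes of H2 over ZG (horizontal axis, bars are SE) of the list members that could be named and tested, 1 line per list with the number of members in parentheses. The filled point, PPP1R3C, is the member called by edgeR, and open points were not called by edgeR. The heat shock, matrix, and zinc and heme members have negative log2 fold changes, with a narrower error for ALAS1 than for the others.

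The same animal was sampled in both phases for 3 steers, 1639, 5612 and 5632. All 8 genes that were higher under H2 had a higher H2 value in each of these 3 animals. The 6 libraries of these animals were among those that had selected the 8 genes, so this shared direction is no separate support. Without the 6 libraries edgeR did not call C10H14orf105, WHAMM, HIST1H2BD or KIF23 (adjusted p = 0.111, 0.181, 0.263 and 0.415). MAP2K6, PPP1R3C, FAM213A and SERPINI2 were still called. The log2 ratios of H2 to ZG, with 0.5 CPM added, were 0.67, 0.60 and 1.16 for MAP2K6 and 1.88, 2.71 and 3.64 for SERPINI2, in that order of steers. PPP1R3C had ratios of 0.29, 0.98 and 0.86, and FAM213A of 0.03, 0.95 and 0.95. The genes lower under H2 did not move alike in these animals. NRCAM had ratios of 1.26, -0.24 and -2.16, ERMP1 0.37, 0.13 and -0.52, and P4HA1 0.30, 0.20 and -0.80. In steer 1639 the H2 library is one of the 5 apart, and in steer 5632 the RFI group was low in ZG and high in H2. In these 6 libraries alone, with steer as a block, edgeR called 0 of 12751 genes, and 971 had an unadjusted p under 0.05.

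A test of whether low and high RFI steers differed in their change between diets called 0 of 12417 genes with edgeR (smallest adjusted p = 0.534), and 214 (1.72%) had an unadjusted p under 0.05. This share is below the 0.05 that p-values without any difference would give, and why was not tested. The test rests on 5 low and 8 high RFI libraries under H2 and 10 and 8 under ZG. A count of 0 therefore does not show that the RFI groups changed alike. DESeq2 called 2 genes for this RFI difference. One was FBP2, a fructose-bisphosphatase, named here after its value was seen, with a log2 difference (low minus high RFI) of -3.77 (adjusted p = 0.0224 from DESeq2), for which edgeR gave -3.83 with an adjusted p of 0.782. UOX, urate oxidase, also chosen after its values were seen, had medians of 101.4 CPM under ZG and 105.6 CPM under H2 in low RFI steers and of 117.8 and 50.7 CPM in high RFI steers. The difference in change was 1.15 (SE 0.34, unadjusted p = 0.00175, edgeR adjusted p = 1). The study had listed both FBP2 and UOX for RFI differences in HF steers under H2. These same H2 libraries had thus selected the 2 genes, and their values by RFI group are no separate support. Without the 5 libraries and with the first component as a covariate edgeR called 0 genes for the RFI difference, with 239 and 493 at an unadjusted p under 0.05.

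In Charolais (CH) steers, a beef breed, 17 libraries from H2 and 6 from ZG allowed the same contrast in animals other than the HF steers. CH steer 307 has a library in both phases, with a high RFI label in ZG and a low one in H2. Its libraries were fitted as separate samples. edgeR called 97 of 12962 genes (0.748%) there, 0.486% higher and 0.262% lower under H2. Of the genes tested in both breeds, 412 were called for HF and 95 for CH, with 17 in common, which is 4.13% of the HF list and 17.9% of the CH list, and all 17 had the same direction. The direction in CH equalled that in HF for 371 of the 412 genes (90%), against 68.5% of all genes tested in both breeds. Of the 12 genes, MAP2K6 was called for CH with a log2 fold change of 0.80 (edgeR adjusted p = 0.044), FAM213A with 0.86 (adjusted p = 0.0108) and HIST1H2BD with 0.92 (adjusted p = 0.0481). PPP1R3C had a similar value of 0.83 in CH but a wider error (SE 0.38, edgeR adjusted p = 0.345). NRCAM had -0.39 in CH (SE 0.42, edgeR adjusted p = 0.692), beside -1.48 in HF. The test of the difference between breeds called 0 of 13292 genes with edgeR (smallest adjusted p = 0.709), and 525 (3.95%) had an unadjusted p under 0.05. For NRCAM the difference between breeds had an unadjusted p of 0.125 and for PPP1R3C 0.698. DESeq2 called 3 genes for the breed difference, one of them SERPINI2. Its log2 difference (HF minus CH) was -17.82 from DESeq2 and -5 from edgeR, which did not call it. SERPINI2 was listed at 0 in all 6 CH ZG libraries and ranged from 0 to 63.6 CPM in CH under H2, so the size of the difference rests on a group at 0.

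The earlier concentrate phase (H1), in which the study offered the same feed, gives levels from 16 HF libraries, of which 4 came from steers that also have an H2 library and 3 from steers with a ZG library, 6 steers in all. This contrast uses the same H2 libraries, and repeated steers were fitted as separate samples, so its values are only set beside the others. edgeR called 8551 of 12691 genes (67.4%) between H2 and H1, 34.9% higher and 32.5% lower under H2, and 64.9% had an unadjusted p under 0.05. The H1 libraries also differed in composition. Their 10 most abundant genes took 22.9% to 29.3% of counts, beside 26.4% to 34.8% in the H2 libraries. TMM factors ranged from 1.027 to 1.337 in H1 and from 0.859 to 1.094 in H2. The part of this in the count and in the medians below was not tested. The H1 median of MAP2K6 was 14.1 CPM, close to the ZG median of 14.1 and below the H2 median of 21.3, and for FAM213A the medians were 61.3, 62.1 and 96.0 CPM under H1, ZG and H2. PPP1R3C had 254 CPM under H1, also nearer to ZG. ERMP1 had 52.95 CPM under H1, near the H2 median of 56.2 and below the ZG median of 75.8. ALAS1 had its lowest median under H1, 174.5 CPM, against 401.5 under ZG and 296 under H2. IRS2 had its highest median there, 4.70 CPM. KIF23, P4HA1 and HIST1H2BD were not called between H2 and H1, with log2 fold changes of 0.12, -0.22 and 0.22.

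**Figure D5:**
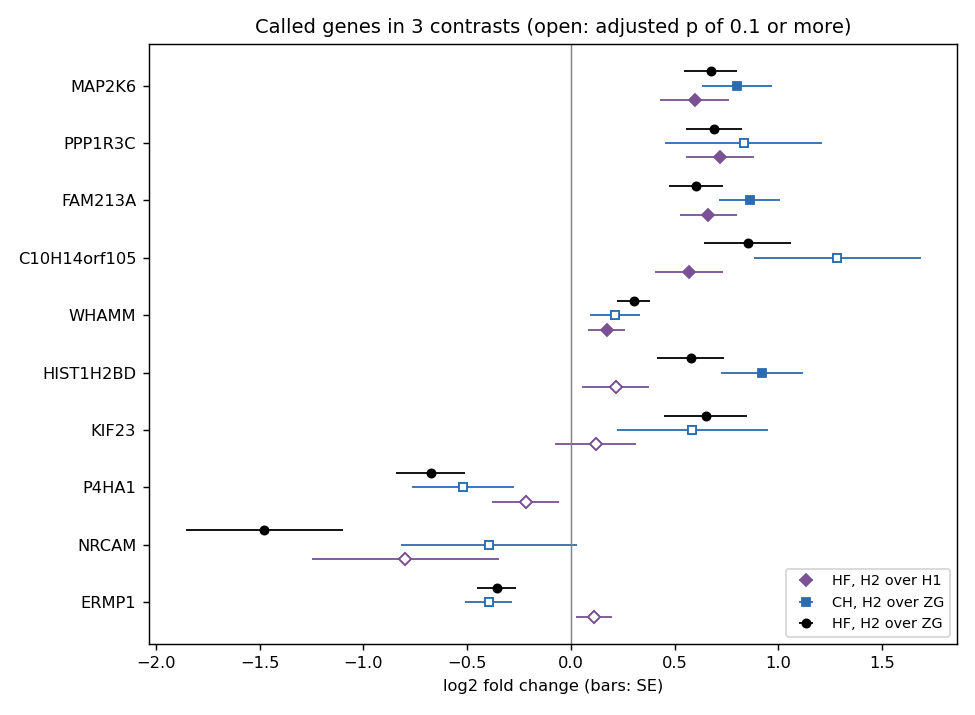
log2 fold changes (horizontal axis, bars are SE) of 10 of the 12 called genes, with SERPINI2 left out for its scale, for H2 over ZG in HF (circles), H2 over ZG in CH (squares) and H2 over H1 in HF (diamonds). Open symbols have an adjusted p of 0.1 or more. The HF and CH values for H2 over ZG lie on the same side of 0 for each gene shown, and the bars of CH are wider.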

How the data were processed

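Single-end reads of stranded poly(A) libraries were aligned by the authors to the bovine assembly UMD3.1 with STAR, which also counted reads per Ensembl gene. The submitters' processing notes give STAR 2.5.3a, CASAVA 1.8 and FastQC 0.11.5. The deposited values are raw gene counts of 24616 genes, with 0 columns of other samples. Symbols came from the study's own list of genes for RFI differences (352 identifiers, 328 with a symbol, 307 of them tested). Phase, breed and RFI group were taken from the labels. The members, gene lists and tests were chosen with earlier results of these data known.

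Counts were fitted in R 4.3.3 with edgeR 4.0.16 (TMM, filterByExpr by phase, robust quasi-likelihood F test) with RFI group as a covariate and Benjamini-Hochberg adjusted p under 0.1, the threshold of the study. The SE is the absolute log2 fold change divided by the square root of F. Printed CPM use TMM factors over all 90 libraries and are not scaled to gene length. The first component score comes from log2 CPM with a prior count of 2, and permutation tests drew 100000 resamples. DESeq2 1.42.0 and limma 3.58.1 gave alternatives, among them other scalings and filters, library subsets, a steer block and each library left out. The fit was also run on simulated counts with planted changes. Those libraries were independent, with none set apart and no repeated steers, so the fit was not tested under such conditions. Figures were drawn with matplotlib 3.10.9. The study took liver from its steers when each phase ended, so 1 animal can have libraries in several phases, and each library was counted as 1 sample.

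The named-gene rule took, among called genes with a symbol, the 10 with the smallest p in each direction, the 5 with the largest change in each direction at a mean of at least 5 CPM, up to 4 called members of each list and up to 5 genes called in each interaction. It gave 12 genes, of which 1 is not reported here, and other genes were chosen after their values were seen. The 31 libraries came from 28 steers. For the 3 steers in both phases, deviations from the phase means, without regard to RFI group, correlated at -0.41, -0.03 and 0.49 over 12417 genes (median of other pairs -0.01).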

Additional observations from a re-analysis of the deposited data

Results flagged for a closer look

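Within each of the 4 HF groups of a diet and an RFI class (5, 8, 8 and 10 libraries), the most extreme library was compared with its nearest neighbour by Dixon's criterion at the 95% level, for 46 genes and the library measures. Of 192 such groups 37 had a library far from the others. Chance gives about 5% for independent, normally distributed values, but CPM are skewed, the genes share libraries and many were chosen after their values were seen, so the 2 shares are not compared. They involved 14 steers, and steer 1639 most often, with 10. No explanation was tested.

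Under ZG the library of low RFI steer 5635 stood apart with a first component score of -108.7 and with CCNDBP1 (94.76 CPM), ERMP1 (113.5 CPM), FGG (30990 CPM), JAM2 (37.58 CPM) and SASS6 (18.56 CPM) highest and EIF3I (86.71 CPM) and GPD1 (91.63 CPM) lowest. Other low RFI ZG libraries stood apart for HIST1H2BD (10.63 CPM, steer 1668), HP (6096 CPM, steer 2094), NEDD9 (68.35 CPM, steer 1909) and SERPINI2 (3.696 CPM, steer 1834). Steer 5612 did so for HSPA1A (870.6 CPM), SLC39A4 (18.61 CPM) and, at the low end, WHAMM (16.61 CPM). Among high RFI ZG libraries the values were 29.98 CPM of ACOT12 (steer 2242), 479.5 CPM of FETUB (steer 1798), and 14680 CPM of HP and 31.07 CPM of SERPINI2 (both steer 2272). The ZG library of steer 1639 was the deepest, with 63621304 counts.

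Under H2 the library of high RFI steer 1639 was lowest for FAM149A (100.4 CPM) and GPD1 (110.9 CPM). It was highest for FGA (33120 CPM), FGG (38870 CPM), HP (7622 CPM), JAM2 (26.06 CPM), NEDD9 (58.96 CPM), NRCAM (8.685 CPM) and SASS6 (19.01 CPM). The other high RFI values were, in steer 1661, 334.1 CPM of HSPA1A and 2.225 CPM of IRS2. Among low RFI H2 libraries steer 2071 was highest for NR1D1 (27.27 CPM), SERPINI2 (248.5 CPM) and ZXDC (4.137 CPM), steer 2220 for HP (1554 CPM) and steer 1657 for TNC (35.12 CPM), while JAM2 was lowest in steer 1657 (12.25 CPM).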

How the results depend on the processing

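The count of 414 called genes became 738 with DESeq2 (all 414 among them), 668 with all HF libraries in one fit, 1135 with all 90, and 2866 with limma-voom and quality weights. Chosen after seeing the data, the first component as a covariate gave 2078 and leaving out the 5 libraries gave 3245. It became 227 at an adjusted p under 0.05, 17 in low RFI steers alone and 30 in high RFI steers alone, fits with fewer libraries. Leaving out 1 library at a time gave 251 (without H2 5612) to 683 (without ZG 5635). DESeq2 size factors in edgeR (403), no filter on low counts (348), a mean of at least 1 CPM (371) and no RFI covariate (441) stayed within 1.5 times. The replicate block for steer in limma-voom gave 381, of which 342 were shared, the 3 paired steers alone with a replicate block gave 0 (971 with an unadjusted p under 0.05), and leaving out their 6 libraries gave 229 (181 shared). Same-steer correlations differed in sign, so the pairing rests on steer identity and not on the data. The consensus steer correlation used for the block in limma-voom was -0.282, resting on the 3 paired steers. A negative value does not describe a level shared within an animal, so the block fit cannot show what shared animals contribute. The RFI difference went from 0 to 2 genes and the breed difference from 0 to 3 with DESeq2, and both were 0 in each other alternative run. No named gene that was called turned direction under the 48 alternatives. These alternatives reuse libraries that had selected the genes, and the threshold of 0.05 reuses the same fit. The shared direction is therefore no separate support. KIF23 passed the threshold in 19 of the 48 alternatives, and among the 11 genes described it was the one whose call ended under the steer block in limma-voom. Apart from the stated fits, the causes were not tested. At 11586997 to 63621304 counts per library no read of SERPINI2 was counted in 5 ZG libraries.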
